A study of Mus musculus with 10 samples.

Results

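A set of 37 genes that define macrophages, build their phagocyte oxidase and carry their receptor and actin signals was followed in a mouse macrophage line and a mouse adipocyte line, each grown with the other or alone. The genes were chosen by name, and their probes were found by gene symbol on an Illumina mouse expression bead array. Of the 37 genes, 35 had at least 1 probe among the 19057 genes on the array, in all 66 of 45281 probes. Cd68 and Lyn matched no probe, so their levels are not analysed here. A single probe stood for 19 of the genes, and 16 genes had several, up to 5.

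Biotin-labelled RNA of 10 samples was measured, each on its own array. The bilayer macrophages (2 samples) were RAW 264.7 cells, a macrophage line labelled as coming from mouse ascites, that had settled for 18 h on a polycarbonate membrane with 0.4 µm pores and were then held for 24 h above adipocytes. The monolayer macrophages (2 samples) were RAW 264.7 cells without adipocytes. The bilayer adipocytes (3 samples) were 3T3-L1 cells, a fibroblast line of mouse embryo that stores fat once differentiated, lying below those macrophages in the same dishes for the 24 h. The monolayer adipocytes (3 samples) were 3T3-L1 cells without macrophages. All 3T3-L1 cells had been differentiated with insulin, dexamethasone and the phosphodiesterase inhibitor IBMX, and were used on day 8. Secreted molecules pass the membrane, and cells do not. Each cell type was represented by 1 permanent line, each sample pooled 5 dishes, and the labels do not say whether monolayer dishes held an insert or how much medium they had. Whether the pools stem from separate cultures is not stated in the labels. The p-values therefore reflect the scatter of these pools, part of which may be technical.

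Macrophages take up particles through receptors for antibody, complement and sugars. The antibody receptors and Trem2 signal through small adaptors, Fcer1g and Tyrobp, to the kinase Syk, and from there through Vav1 and Rac2 to actin. The phagocyte oxidase joins the membrane proteins encoded by Cybb and Cyba with cytosolic subunits, among them those of Ncf1 and Ncf4, and makes superoxide in the phagosome. In adipose tissue some of these genes are widely read as signs of resident or incoming macrophages.

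Levels below are the authors' background-subtracted and normalized intensities on a linear scale, in intensity units. A noise bound of 10.9 units, the 99th percentile of the sizes of values below 0, separates signal from noise. Differences are in log2(intensity + 16), which understates the change of dim genes. They were tested with limma on all 10 samples, with a call at an adjusted p under 0.05 (Benjamini-Hochberg over all genes tested). Levels of different probes are not compared with each other, because probes differ in binding. The distributions of the 10 arrays were nearly the same, with medians of 5.08 to 5.10 units, and 41.9% of the probes exceeded the noise bound on each. Arrays of 1 group correlated at 0.988 to 0.991 over all probes and arrays of different lines at 0.838 to 0.844.

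Most of these genes, chosen as macrophage genes, were detected in the cells labelled as macrophages. By any of its probes, 30 of the 35 genes exceeded the noise bound on all 4 macrophage arrays, and 1, Cd48, on none. In adipocytes 3 did so on all 6 arrays, namely Trem2, Slc11a1 and Ptpn6, and 20 did so on none. Of 9 adipocyte markers on the array, 1 was above noise on each bilayer macrophage array and 2 or 3 on each monolayer macrophage array. Nearly all of that signal was Lpl, lipoprotein lipase, which had 3418 and 4030 units in bilayer macrophages and 4572 and 4566 units in monolayer macrophages. Adipoq was above noise on both monolayer macrophage arrays, at 12.1 and 19.0 units, and Plin1 on monolayer replicate 1, at 18.5 units. Fabp4, Cidec, Lep, Scd1, Adig and Car3 were not above noise on any macrophage array. Of 10 fibroblast and preadipocyte markers, Acta2 alone was above noise in macrophages, at 112 and 79.1 units in bilayer and 96.5 and 93.0 units in monolayer. Of 3 lymphocyte markers on the array, Ms4a1 alone was above noise on 1 of the 4 macrophage arrays, at 27.7 units in bilayer.

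**Figure D1:**
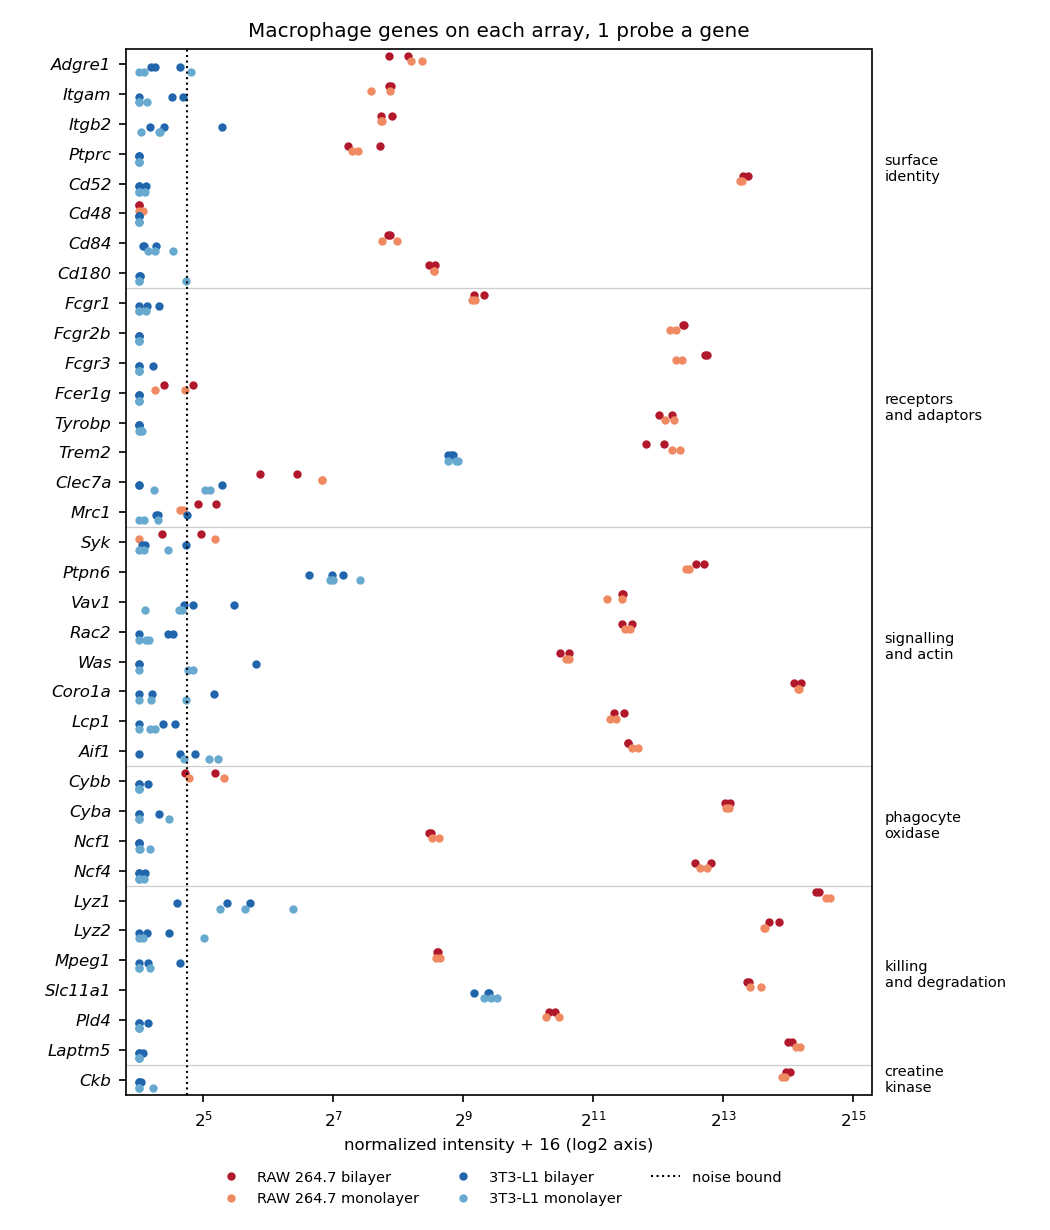
Normalized intensity plus 16 (log2 axis) of the 35 genes on each of the 10 arrays, grouped by role, with 1 coloured point per array for bilayer macrophages, monolayer macrophages, bilayer adipocytes and monolayer adipocytes. The dotted line marks the noise bound of 10.9 units. Most genes have macrophage points far to the right of it and adipocyte points near or left of it, and the points of bilayer and monolayer lie close together within each line.

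Within macrophages, none of the genes passed the test between bilayer and monolayer. Of the 33 tested, 0 were higher and 0 lower, where 0.678% of all 10326 genes tested passed (70 genes, 0.504% higher and 0.174% lower). An unadjusted p under 0.05 was reached by 2 of the 33 in limma, Fcgr3 and Trem2, and by 1131 of the 10326. The median log2 difference was -0.004 over the 33 genes and 0.0037 over all genes, and 15 of the 33 differences were positive. The median size of a difference was 0.10, and 2 replicates of bilayer differed by a median of 0.10 and 2 of monolayer by 0.08. The groups did not overlap for 15 of the 33, where 43.5% of all genes had groups that did not overlap. In 30 of the 33 the 95% interval of the difference lay within a 2-fold change either way, and in 14 within 1.41-fold. The 30 include Syk and Cybb, which lie near the noise bound. For such dim genes the constant added before the log understates the change, so their expression is not bounded within 2-fold. Over the alternative settings the log2 difference of Syk ran from -0.51 to 1.04. In a culture, fewer cells of a type and less RNA per cell cannot be told apart.

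The adipocyte markers on the same macrophage arrays summed to 3400 to 4033 units in bilayer and to 4577 to 4592 units in monolayer. Nearly all of these sums was Lpl, whose values are given above. Adipoq, the adiponectin gene of adipocytes, had 0.748 and 5.26 units in bilayer macrophages, below noise, and 12.1 and 19.0 units in monolayer macrophages, just above it. It entered the test only through its monolayer samples, so its adjusted p of 0.0156 is given as a value only. That p was 0.228 without bilayer replicate 1 and 0.111 to 0.507 in the 5 alternatives where it missed the threshold. The part of adipocyte RNA, if any, in the results on macrophages was not tested.

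**Figure D2:**
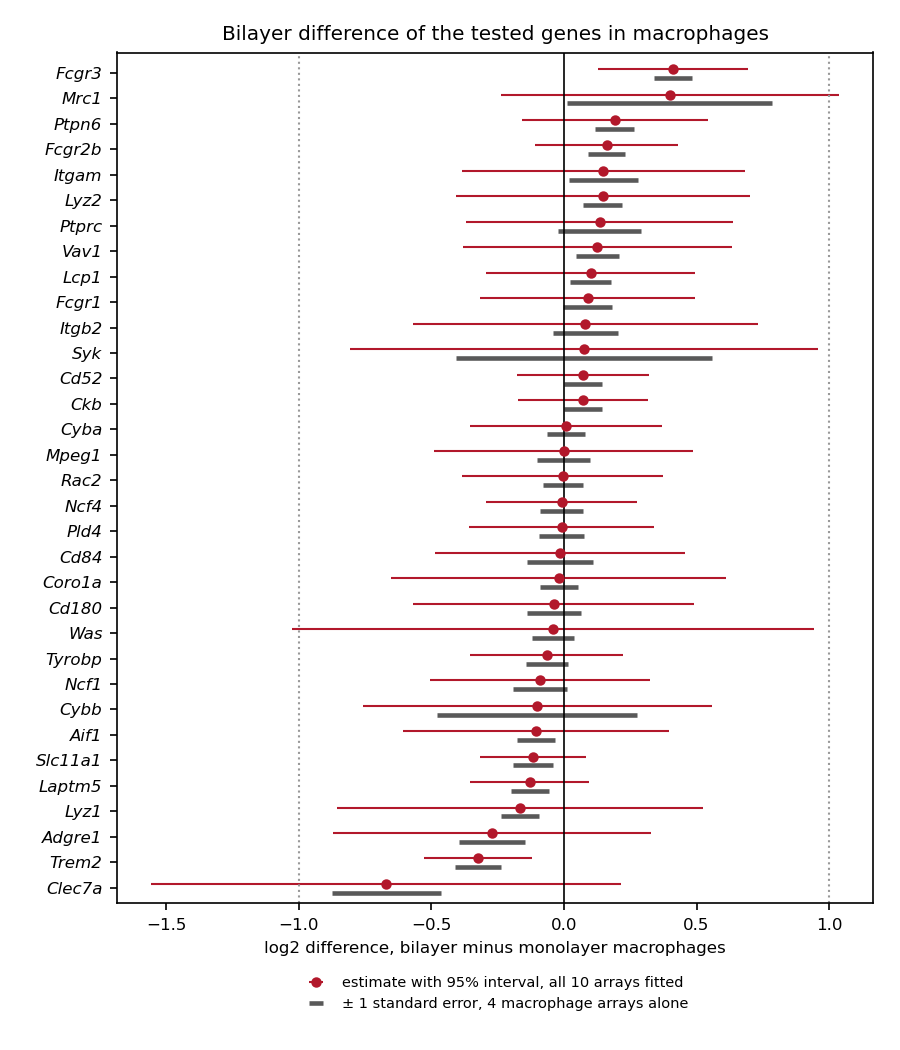
Log2 difference of bilayer minus monolayer macrophages for the 33 genes tested, ordered from the highest difference to the lowest. Points are estimates, thin bars 95% intervals of the fit on all 10 arrays, thick bars 1 standard error either way in the fit on the 4 macrophage arrays, and dotted lines a 2-fold change. The estimates run from -0.67 for Clec7a to 0.41 for Fcgr3, and most lie within 0.2 of zero.

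Regulatory sequence around the starts of 5 of these genes, from the integrin, receptor, oxidase and signalling groups, is shown so that their windows can be read beside the values. The windows are RefSeq's on build GRCm38.p6 and run, 5′ to 3′ on the gene's strand, through the bases around the annotated start. Capitals mark the letters GAGGAA or, where the match is on the other strand, TTCCTC. These 6 letters are the core of sites bound by PU.1, the myeloid transcription factor encoded by Spi1. The genes are Itgam (chr7:128062390-128062689, plus strand), the integrin subunit of complement receptor 3, and Fcgr3 (chr1:171059345-171059644, minus strand), a low-affinity antibody receptor. Trem2 (chr17:48346151-48346450, plus strand) is a lipid-sensing receptor, Cybb (chrX:9469275-9469574, minus strand) the catalytic oxidase subunit, and Vav1 (chr17:57278850-57279149, plus strand) an exchange factor that acts on Rac2.
Itgam: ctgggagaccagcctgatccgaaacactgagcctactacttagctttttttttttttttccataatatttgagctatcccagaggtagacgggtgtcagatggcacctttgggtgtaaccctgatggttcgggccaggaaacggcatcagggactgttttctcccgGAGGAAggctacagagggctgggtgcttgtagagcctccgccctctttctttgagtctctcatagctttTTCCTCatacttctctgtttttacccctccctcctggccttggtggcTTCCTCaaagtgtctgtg
Fcgr3: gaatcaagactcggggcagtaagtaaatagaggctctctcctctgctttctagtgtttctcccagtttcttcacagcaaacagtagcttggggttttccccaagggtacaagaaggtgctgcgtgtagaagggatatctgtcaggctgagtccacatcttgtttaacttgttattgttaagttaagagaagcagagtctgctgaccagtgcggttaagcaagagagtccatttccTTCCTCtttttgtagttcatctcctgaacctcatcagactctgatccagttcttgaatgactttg
Trem2: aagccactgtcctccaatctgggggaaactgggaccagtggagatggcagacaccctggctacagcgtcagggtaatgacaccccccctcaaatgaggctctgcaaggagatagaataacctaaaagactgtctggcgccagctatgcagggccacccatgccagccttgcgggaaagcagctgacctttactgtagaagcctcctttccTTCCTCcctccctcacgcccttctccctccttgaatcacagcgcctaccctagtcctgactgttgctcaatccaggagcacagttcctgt
Cybb: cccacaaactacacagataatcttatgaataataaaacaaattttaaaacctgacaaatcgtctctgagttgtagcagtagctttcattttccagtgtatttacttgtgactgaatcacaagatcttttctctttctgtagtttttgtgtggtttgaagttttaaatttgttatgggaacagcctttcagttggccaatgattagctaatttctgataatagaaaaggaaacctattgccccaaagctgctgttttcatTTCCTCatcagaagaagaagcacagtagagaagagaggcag
Vav1: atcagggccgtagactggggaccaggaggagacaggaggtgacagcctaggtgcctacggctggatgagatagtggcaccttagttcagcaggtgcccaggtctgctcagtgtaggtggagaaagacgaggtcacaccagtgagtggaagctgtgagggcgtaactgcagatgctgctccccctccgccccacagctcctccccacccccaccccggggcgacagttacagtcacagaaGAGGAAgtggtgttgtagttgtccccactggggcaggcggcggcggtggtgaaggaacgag

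In the Itgam window the letters occur 3 times, once as GAGGAA and 2 times as TTCCTC. In the Fcgr3, Trem2 and Cybb windows they occur once each, as TTCCTC. The Vav1 window has 1 GAGGAA, which is part of the longer GAGGAAGT. RefSeq windows were found for 30 of the 37 genes named, Cd68 among them, and came to 37 in all, since some genes have several starts and their windows can overlap. GAGGAA was in 19 of the 37 windows on either strand (51.4%), covering 17 genes, and in 9289 of 32851 windows of all mouse genes (28.3%). All 5 windows shown are among the 19, and windows without GAGGAA, such as those of the oxidase genes Cyba and Ncf1, are not shown. GAGGAAGT, which contains GAGGAA, was in 2 of the 37 (5.41%), those of Vav1 and Pld4, and in 3.20% of all windows. TTGCNNAA, a form of the C/EBP site, was in 5 (13.5%) and in 10.8% of all, and TATAAA in 4 (10.8%) and in 13.6% of all. Median GC content was 47.7% in the 37 windows and 52.7% in all windows. A match is a description of letters, not of a bound site.

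Of the genes with a positive difference, Fcgr3 had the smallest p. Fcgr3 had 6733 and 6931 units in bilayer macrophages, against 4972 and 5299.9 units in monolayer macrophages. Both bilayer values lay above both monolayer values. The log2 difference was 0.41 (SE 0.13, 95% interval 0.13 to 0.69, a 1.33-fold ratio), and it did not pass the test, with adjusted p = 0.239. In a limma fit on the 4 macrophage arrays alone the SE was 0.07 and the adjusted p 0.00281, and with 64 in place of 16 added before the log the adjusted p was 0.0326, so the call depends on how the spread is pooled and on the constant. Over all alternatives it ranged from 0.00281 to 0.960, and the difference was positive in each.

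Fcgr2b, the inhibitory antibody receptor, had 5340.0 and 5375 units in bilayer macrophages and 4942 and 4647 units in monolayer macrophages, and the groups did not overlap. The log2 difference was 0.16 (SE 0.13, adjusted p = 0.731), and its 4 tested probes gave values between 0.04 and 0.21. Fcgr2b and Fcgr3 lie close together on chromosome 1, with 1 coding gene between them, and their sequences are alike, so that a probe of one may in part read the other. Fcgr1, the high-affinity receptor, had 625 and 561 units in bilayer and 547 and 563 units in monolayer, and these values overlapped. The adaptor gene Fcer1g, on which surface expression of the activating antibody receptors depends, had a single probe with 5.03 and 12.5 units in bilayer and 10.3 and 2.99 units in monolayer. It exceeded the noise bound on 1 macrophage array, was not tested and has only a bound here.

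Trem2 had 4348 and 3592 units in bilayer macrophages, against 4735 and 5174 units in monolayer macrophages. Both bilayer values were below both monolayer values. The log2 difference was -0.32 (SE 0.09, 95% interval -0.53 to -0.12), which did not pass the test (adjusted p = 0.196). In the fit on macrophage arrays alone the adjusted p was 0.0676, the lowest of its alternatives, and the highest was 0.691. Tyrobp, the adaptor that carries the signal of Trem2, had 4739 and 4139 units in bilayer and 4862 and 4414 units in monolayer, which overlapped, with a log2 difference of -0.06 (adjusted p = 0.943).

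The probes of the lectin receptors gave low readings in this line, and low expression and weak binding of a probe cannot be told apart. Clec7a, the beta-glucan receptor dectin-1, had 42.6 and 70.8 units in bilayer macrophages and 97.3 and 97.6 units in monolayer macrophages by the probe fitted. By its other probe it had 69.4 and 85.4 units in bilayer and 104 and 101 units in monolayer. Both probes were lower in both bilayer samples, but neither difference passed. The log2 differences were -0.67 (95% interval -1.56 to 0.22, adjusted p = 0.625) and -0.35. The fit pools the spread with adipocytes, where the first probe ran from -4.97 to 22.8 units in bilayer and from 2.93 to 18.3 units in monolayer, on both sides of the noise bound. Mrc1, the mannose receptor, had 20.8 and 14.3 units in bilayer and 9.85 and 8.83 units in monolayer, both below the bound. It entered the test only through its bilayer samples, so its log2 difference of 0.40 (95% interval -0.24 to 1.04, adjusted p = 0.715) is given as a value only.

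**Figure D3:**
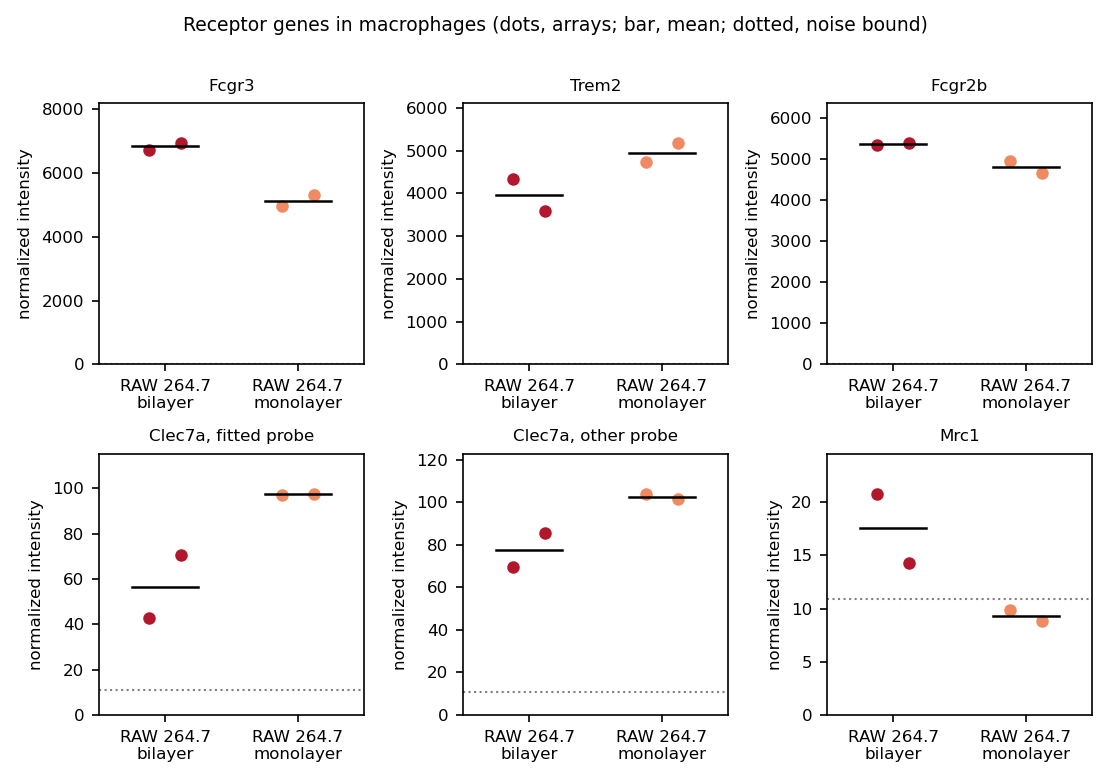
Normalized intensity of Fcgr3, Trem2, Fcgr2b, Clec7a (the probe fitted and its other probe) and Mrc1 on each macrophage array, with bilayer left of monolayer in each panel and linear axes that differ between panels. In every panel the 2 bilayer points do not overlap the 2 monolayer points, and none of these differences passed the test over all 10 arrays. Of all genes tested in macrophages, 43.5% had groups that did not overlap.

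Among the signalling and actin genes, 0 of the 8 tested passed (0.678% of all genes did), with log2 differences from -0.10 to 0.19. Ptpn6, the phosphatase SHP-1 that dampens receptor signals, had 6689 and 6108 units in bilayer macrophages and 5674 and 5518 units in monolayer macrophages, and the groups did not overlap. Its log2 difference was 0.19 (SE 0.16, adjusted p = 0.758), while its second probe gave -0.01. Vav1 had 2804 and 2768 units in bilayer and 2353 and 2768 units in monolayer. Rac2, which serves both actin and the oxidase, had 3087 and 2784 units in bilayer and 3022 and 2859.8 units in monolayer. The values of Vav1 and of Rac2 overlapped between the conditions.

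Was, the actin-nucleation promoter mutated in Wiskott-Aldrich syndrome, had 1428 and 1574 units in bilayer macrophages and 1521 and 1565 units in monolayer macrophages. Coro1a, the actin-binding protein coronin-1A, had 18817 and 17518 units in bilayer and 18519 and 18286 units in monolayer. For both genes the 2 bilayer values enclosed the monolayer values. Lcp1, the actin bundler L-plastin, had 2547 and 2840.5 units in bilayer and 2428 and 2589 units in monolayer. Aif1, also called Iba1 and used to stain macrophages, had 2960.1 and 2968 units in bilayer and 3279.9 and 3099.6 units in monolayer by the probe fitted, with both bilayer values below both monolayer values. Its other 2 probes gave differences of the opposite sign, 0.08 and 0.09, against -0.10. Syk had 15.3 and 4.48 units in bilayer and 20.1 and -1.96 units in monolayer, above noise on 1 array of each condition, so its level is at the limit of what the array measured.

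Of the 4 oxidase genes on the array, 0 passed (0.678% of all genes did), with log2 differences from -0.10 to 0.006. Cyba, the smaller membrane subunit, had 8385 and 8837 units in bilayer macrophages and 8409 and 8737 units in monolayer macrophages, a log2 difference of 0.006 (95% interval -0.36 to 0.37). Ncf4, a regulatory subunit that binds membrane lipid, had 6052 and 7191 units in bilayer and 6879.6 and 6403 units in monolayer, a log2 difference of -0.009 (95% interval -0.29 to 0.27). For both genes the bilayer values enclosed the monolayer values, and the intervals leave out a 1.41-fold change. Ncf1, the organizer subunit, had 338 and 348 units in bilayer and 353 and 380.3 units in monolayer, a log2 difference of -0.09 (95% interval -0.51 to 0.32). Cybb had 20.3 and 10.2 units in bilayer and 11.6 and 23.7 units in monolayer by its brighter probe, which was above noise on 3 of 4 arrays. Its other probe stayed below noise on all 10 arrays. Its log2 difference was -0.10 with a 95% interval of -0.76 to 0.56, the widest of the 4.

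For killing and degradation, 0 of 6 genes passed (0.678% of all genes did), with log2 differences from -0.17 to 0.15. Lyz1, one of a pair of neighbouring mouse lysozyme genes, had 22059.6 and 22815 units in bilayer macrophages and 25745 and 24596 units in monolayer macrophages. Lyz2, the lysozyme gene of macrophages, had 14875 and 13440.2 units in bilayer and 12694 and 12867 units in monolayer. The groups did not overlap for either gene, in opposite directions, with log2 differences of -0.17 and 0.15 (adjusted p = 0.936 and 0.927). The other probes disagreed with these signs, since another Lyz1 probe gave 0.34 and the other Lyz2 probes -0.11 and -0.008. The genes are alike in sequence, so how each probe divides its signal between them is uncertain.

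Slc11a1, the phagosomal metal transporter NRAMP1, had 10844 and 10533 units in bilayer macrophages and 10926 and 12292 units in monolayer macrophages. Its 4 probes all gave negative log2 differences, from -0.18 to -0.03, and none passed. Laptm5, which encodes a membrane protein of leukocyte lysosomes, had 16304 and 17098 units in bilayer and 18699 and 17824 units in monolayer, groups that did not overlap, at -0.13 (adjusted p = 0.743). Mpeg1, the pore-forming protein perforin-2, had 373 and 376 units in bilayer and 367 and 382 units in monolayer. Pld4, an endolysosomal nuclease, had 1257 and 1349 units in bilayer and 1226 and 1401 units in monolayer. For Mpeg1 and Pld4 the monolayer values enclosed the bilayer values. Ckb, the cytosolic creatine kinase, had 16029 and 16669.5 units in bilayer and 15307 and 15819.6 units in monolayer, at 0.07 (adjusted p = 0.917).

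Of the surface markers used to identify macrophages and other leukocytes, 0 of the 7 tested passed, where 0.678% of all genes did. Their log2 differences ran from -0.27 to 0.15. Adgre1, the F4/80 antigen, had 216 and 269 units in bilayer macrophages and 312 and 278 units in monolayer macrophages. Its 3 tested probes gave negative differences, from -0.27 to -0.14, and none passed (adjusted p = 0.818 for the probe fitted). Itgam had 215 and 222 units in bilayer and 176 and 217 units in monolayer, and its partner Itgb2 had 222 and 197 units in bilayer and 198 and 196 units in monolayer. Cd52, a small surface glycoprotein of leukocytes, had 10121 and 10729.9 units in bilayer and 10068 and 9764 units in monolayer, at 0.07 (adjusted p = 0.918).

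Ptprc, the leukocyte phosphatase CD45, had 194 and 134 units in bilayer macrophages and 151 and 140.4 units in monolayer macrophages. Cd84, a self-binding receptor of the SLAM family, had 213 and 218 units in bilayer and 200.3 and 237 units in monolayer. Cd180, a relative of the Toll-like receptors, had 338 and 362 units in bilayer and 360.1 and 359.8 units in monolayer by the probe fitted. By these probes the values of all 3 genes overlapped. Second probes of 2 of them did not. Ptprc had 115 and 121 units in bilayer and 97.8 and 95 units in monolayer by its second probe, and Cd180 had 52.8 and 49.6 units in bilayer and 106 and 79.6 units in monolayer by its own. Tested on their own, these probes gave log2 differences of 0.25 (adjusted p = 0.822) and -0.68 (adjusted p = 0.665) and did not pass. Cd48, another SLAM-family protein, had -4.16 and -8.95 units in bilayer and 0.849 and -3.22 units in monolayer. It was below the noise bound on all 10 arrays and was not tested.

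The spread used in the fit bears on these results. Over the 33 genes the median SE was 0.22 when pooled over the 4 groups and 0.08 in the fit on macrophage arrays alone. In that fit 1 of the 33, Fcgr3, passed, where 168 of all 10326 genes tested passed. For 20 of the 35 no adipocyte array was above noise, and the part of such arrays in the wider SE was not tested.

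Macrophages had higher levels of these genes than adipocytes in both conditions. In bilayer, 31 of 33 passed as higher in macrophages and 0 as lower, where 66.1% of all 12324 genes tested passed (32.9% higher and 33.2% lower). In monolayer, 31 of 33 passed as higher and 0 as lower, where 65.7% of all genes passed (32.7% higher and 33% lower). Most of the 33 entered the test through their macrophage samples, so these counts describe the choice of genes and are no further evidence. Macrophage and adipocyte arrays did not overlap for 32 of the 33 in bilayer, where 74.1% of all genes did not, and for 32 in monolayer, where 75.2% did not. Mrc1 and Syk, both near the noise bound, did not pass in either condition.

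Where no adipocyte array of a condition was above noise, only a lower bound of the ratio can be given. In bilayer Fcgr3 was at least 255-fold, Fcgr2b at least 200-fold and Tyrobp at least 165-fold higher in macrophages. In monolayer these bounds were at least 191-fold, at least 179-fold and at least 173-fold. Cyba was at least 321-fold higher in bilayer and at least 319-fold higher in monolayer, Ncf4 at least 246-fold and at least 247-fold, and Ncf1 at least 13.3-fold and at least 14.2-fold. Cybb, with low readings of its probe in macrophages, reached bounds of only 1.15-fold in bilayer and 1.23-fold in monolayer. Its fitted log2 differences in limma were 0.90 in bilayer (adjusted p = 0.0106) and 1.05 in monolayer (adjusted p = 0.00399). Cybb entered this test only through its macrophage samples, so these are given as values only. Rac2 was at least 110-fold higher in both conditions and Lcp1 at least 101-fold in bilayer and at least 93.8-fold in monolayer. These bounds are set by each probe's brightness in macrophages and do not rank the genes.

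A few of the genes gave a measurable signal in adipocytes. Trem2 had 432, 443 and 419 units in bilayer adipocytes, against 467, 459 and 420.1 units in monolayer adipocytes, all far above noise. It was 8.88-fold higher in macrophages than in adipocytes in bilayer and 10.7-fold higher in monolayer. Its log2 difference between bilayer and monolayer adipocytes was -0.05 (95% interval -0.22 to 0.11, adjusted p = 0.726), an interval that leaves out a 1.41-fold change. Trem2 has 1 probe here, so no second probe bears on its signal in adipocytes.

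Slc11a1 had 649, 662 and 561 units in bilayer adipocytes and 716, 669 and 624 units in monolayer adipocytes by its brightest probe, with overlapping groups and a log2 difference of -0.10 (adjusted p = 0.449). Its second probe gave 22.0, 21.0 and 29.3 units in bilayer and 39.3, 55.5 and 41.1 units in monolayer, where every bilayer value was below every monolayer value. With every probe tested on its own by limma, this second probe fell by 0.61 on the log2 scale (SE 0.11, adjusted p = 0.0014) and the brightest did not pass (-0.10, adjusted p = 0.470). The 2 probes disagree in level as well. The ratio of macrophages to adipocytes was 16.8-fold in bilayer and 17.0-fold in monolayer by the brightest probe, and 147-fold and 109-fold by the second. Slc11a1's other 2 probes were at or near noise in adipocytes.

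Ptpn6 had 83.1, 110.2 and 126 units in bilayer adipocytes and 108, 111 and 155 units in monolayer adipocytes, overlapping groups with a log2 difference of -0.20 (adjusted p = 0.352). It was 52.9-fold higher in macrophages in bilayer and 40.4-fold higher in monolayer. Lyz1 had 25.3, 8.09 and 36.6 units in bilayer adipocytes and 66.8, 33.7 and 22.1 units in monolayer adipocytes, at -0.53 (SE 0.23, adjusted p = 0.172). These values overlap and 1 lies below noise.

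Of the 35 genes, 9 could be tested in adipocytes, and 0 passed, where 10.9% of all 11037 genes tested passed (1206 genes, 5.67% higher and 5.26% lower). An unadjusted p under 0.05 was reached by 3 of the 9 in limma (Vav1, Aif1 and Lyz1) and by 2711 of the 11037. Vav1 alone had groups that did not overlap, where 28.6% of all genes did. It had 9.87, 12.7 and 28.2 units in bilayer and 8.75, 1.23 and 9.53 units in monolayer. Its monolayer values all lie below the noise bound and 1 bilayer value does as well, and it entered the test only through bilayer. Its log2 difference of 0.53 (SE 0.18, adjusted p = 0.0705) is therefore given as a value only.

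Aif1 had 8.88, -0.543 and 13.3 units in bilayer adipocytes and 10.1, 17.8 and 21.3 units in monolayer adipocytes, with a log2 difference of -0.50 (SE 0.18, adjusted p = 0.0852). These values lie on both sides of the noise bound, with 3 adipocyte arrays above it. Of the other Aif1 probes, 1 was above noise on 1 adipocyte array and the other on none. For Vav1, with the limit given in the paragraph before, the adjusted p was 0.0300 without bilayer replicate 1 and 0.0285 with the replicate number as a block. For Aif1 it was 0.0224 without bilayer replicate 3. Clec7a had -4.60, 22.8 and -4.97 units in bilayer and 16.6, 2.93 and 18.3 units in monolayer. Was had 39.9, -0.289 and -1.17 units in bilayer and 12.8, 11.2 and -7.31 units in monolayer, and both genes had overlapping groups on either side of the noise bound.

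**Figure D4:**
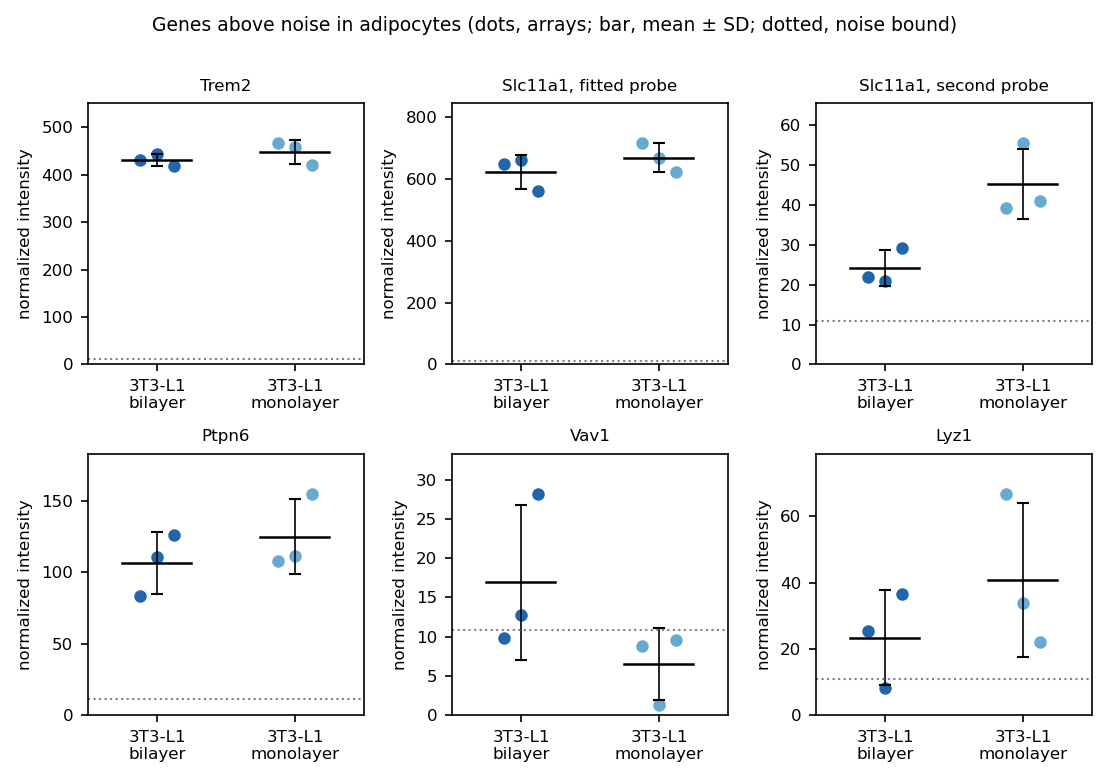
Normalized intensity of Trem2, Slc11a1 (brightest and second probe), Ptpn6, Vav1 and Lyz1 on each adipocyte array, with bilayer left of monolayer, linear axes that differ between panels and bars of the mean with 1 SD either way (n = 3 each). Trem2, Ptpn6, Lyz1 and the brightest Slc11a1 probe overlap between the conditions, and the second Slc11a1 probe and Vav1 do not.

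Cd180 was tested in adipocytes through a probe other than the one used in macrophages, which had 28.7, -0.172 and 12.4 units in bilayer and 22.5, 4.22 and 0.827 units in monolayer. The remaining signals were on few arrays. Coro1a reached 19.6 and Itgb2 23.1 units on 1 bilayer array each. Adgre1 reached 12.2 and Lyz2 16.3 units on 1 monolayer array each. Mrc1 had 10.9 units, just above the bound, on 1 bilayer array, and Fcgr2b had 11.4 units on 1 bilayer and 17.4 units on 1 monolayer array by 2 of its dimmer probes.

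The summed level in adipocytes was mostly that of Slc11a1 and Trem2. Summed over the 35 genes, intensity was 1205 to 1258 units on bilayer adipocyte arrays and 1247 to 1392 units on monolayer adipocyte arrays, with 6 or 7 genes above noise on each. These ranges overlap, and the sums were not tested. On macrophage arrays the sum was 168048 to 168254 units in bilayer and 168807 to 169077 units in monolayer. For the 26 genes brighter than 100 units in monolayer macrophages and not above noise on all adipocyte arrays, the bilayer adipocyte arrays held a median of -0.0104% to 0.0329% of the macrophage level and the monolayer adipocyte arrays -0.00343% to 0.0358%. Between 2 and 4 of these 26 were above noise on each adipocyte array in either condition. The choice of the 26 left out the genes measured on every adipocyte array, so low shares follow from it. Most of the readings behind these shares lie below the noise bound, and the shares are given as values only.

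The response to the bilayer was also compared between the lines by a test of the difference itself. Bilayer macrophage and adipocyte samples may stem from the same dishes. The fit treats them as independent, here and in the comparison of the lines in bilayer, and this was not checked. Only 9 of the 33 genes tested could be tested in adipocytes. For the others, Fcgr3 among them, the adipocyte values lie near or below noise, and the difference is mainly that of macrophages. Of the 33, 0 passed, where 2.56% of all 12324 genes passed (1.05% more positive and 1.5% more negative in macrophages). An unadjusted p under 0.05 was reached by 1 of the 33 in limma, Trem2, and by 2028 of the 12324. The macrophage minus adipocyte difference in response was -0.27 for Trem2 (95% interval -0.53 to -0.005, adjusted p = 0.297), 0.34 for Fcgr3 (95% interval -0.02 to 0.69, adjusted p = 0.338) and 0.39 for Ptpn6 (95% interval -0.06 to 0.84, adjusted p = 0.385). The median over the 33 was -0.03, and 0.02 over all genes.

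Other genes of the same pathways were read from the same fits. Of 74 further genes listed for the oxidase, myeloid signalling, receptors and degradation, 69 were on the array. In macrophages 0 of the 53 tested passed, beside 0.678% of all genes, and the median log2 difference was -0.03. An unadjusted p under 0.05 by limma was reached by 8 of the 53 and by 1131 of all 10326 genes tested. Of the oxidase partners and relatives 2 could be tested in macrophages and 3 in adipocytes, and 0 passed. In adipocytes 3 of the 32 tested passed, 2 higher and 1 lower, beside 10.9% of all genes. Itgal, the integrin subunit that pairs with Itgb2 in LFA-1, fell by 0.54 on the log2 scale (SE 0.13, adjusted p = 0.0121), with 49.1, 66.5 and 68.4 units in bilayer against 84.7, 103 and 101 units in monolayer. Lgals3, the lectin galectin-3, rose by 0.22 (SE 0.07, adjusted p = 0.0439), with 9275, 9303 and 10320.2 units in bilayer against 8286, 7660.1 and 8917 units in monolayer. Cd14, the lipopolysaccharide co-receptor, rose by 0.26 (SE 0.08, adjusted p = 0.0448), with 292, 327 and 328 units in bilayer against 253, 282 and 245 units in monolayer. In each of the 3 the groups did not overlap, as in 28.6% of all genes tested in adipocytes. The call of Itgal was lost without monolayer replicate 2 (adjusted p = 0.0558). Those of Lgals3 (adjusted p = 0.0514 to 0.198) and Cd14 (adjusted p = 0.0570 to 0.155) were lost without either bilayer macrophage array and without adipocyte bilayer replicates 2 or 3 or monolayer replicate 1, that of Lgals3 also without monolayer replicate 2 and that of Cd14 also without monolayer replicate 3. In the test of the difference in response, 0 of 59 passed, beside 2.56% of all genes.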

How the data were processed

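RNA of 10 samples was measured on bead arrays. The authors deposited background-subtracted, normalized intensities, 1 linear value per probe and array, made in a way not given in the sources used here. The submitters' processing notes name GenomeStudio 2011.1. Negative intensities were set to 0 and log2(intensity + 16) was computed from the deposited values. A further 20 value columns on 2 slides could not be tied to samples and were not used, so slide entered no test.

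Probes were named from the platform annotation (34885 with 1 symbol, 18 with several and 10378 with none, the last 2 kinds left out). For each gene the probe was used whose mean was highest in log2(intensity + 16) over all 10 arrays, which need not be the brightest in macrophages, among those above the noise bound of 10.9 on at least 2 arrays of the line, or of all 10 arrays for tests between lines. limma 3.58.1 in R 4.3.3 (lmFit, eBayes with trend) was fitted to 4 groups, with two-sided tests, 95% intervals and Benjamini-Hochberg adjustment over all genes, called at 0.05. A ratio against a group with no array above noise is given as at least N-fold, against the noise bound or the gene's own value where that is higher, each plus 16. SE denotes a standard error in log2 units and SD a standard deviation of intensities, and the number of arrays limits the precision. The script was tested on simulated data. For macrophages it recovered 17 of 50 changes of 0.5 in log2, 31 of 50 of 1 and 45 of 50 of 2, with 12 false calls. For adipocytes it recovered 20 of 50, 42 of 50 and 49 of 50, with 6 false calls. Many changes of 0.5 can therefore be missed. Promoter windows came from RefSeq's GRCm38.p6 table. The genes and gene lists were chosen with earlier results of these data known. Values on every array are given for genes past the threshold, those with the highest and lowest mean intensity in macrophages, those above noise in adipocytes and the smallest p of each role, and further genes are given for completeness.

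Replicate numbers were checked as pairs of bilayer and monolayer within each line, and pairs between the lines were not checked. Deviations of same-numbered samples correlated at -0.03 in macrophages and at 0.06, 0.02 and 0.07 in adipocytes, so the numbers were not used as pairs.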

Additional observations from a re-analysis of the deposited data

How the results depend on the processing

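None of the 33 genes tested in macrophages passed in any alternative except Fcgr3, which passed with 64 added before the log and with the groups compared alone (1 gene each, 0 with every array left out in turn). In adipocytes the count of 0 among the 9 became 1 with every probe on its own (Slc11a1), 1 with the replicate block (Vav1) and 0 to 1 with arrays left out. In the difference of the responses it stayed 0 in all alternatives run. Between the lines the count was 30 to 32 in bilayer and 30 to 31 in monolayer with arrays left out. In at least 1 alternative the sign of the difference turned for 14 of 33 genes in macrophages (the largest at 0.14, Ptprc), for 2 of 9 in adipocytes (Cd180 and Was) and for 20 of 33 in the difference of the responses, Fcgr3 among them (0.34, and -0.22 in 1 alternative). The signs of Fcgr3 and Trem2 in macrophages and of Vav1, Aif1 and Slc11a1 in adipocytes did not turn.

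The counts over all genes moved more. In macrophages 70 genes became 168 with the groups compared alone and 11 to 74 with arrays left out, namely 17 and 11 without bilayer replicates 1 and 2, 36 and 25 without monolayer replicates 1 and 2, and 46 without adipocyte monolayer replicate 1. In adipocytes 1206 became 609 with no filter on dim probes, 598 with no variance trend and 687 to 1161 with arrays left out, with 799 without bilayer replicate 2 and 687 and 780 without monolayer replicates 1 and 2. In the difference of the responses 315 became 104 with no filter, 81 with no trend and 104 to 314 with arrays left out. All 4 macrophage arrays, adipocyte bilayer replicate 2 and adipocyte monolayer replicates 1 and 2 each moved it by over 1.5 times (104, 128, 144, 142, 203, 181 and 185 without them). Between the lines the counts were 7443 to 8118 in bilayer and 7365 to 8157 in monolayer. The causes were not tested.

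Since the replicate numbers did not pair the samples, the replicate block is an alternative only. It gave 57 genes in macrophages, 1201 in adipocytes and 238 in the difference of the responses. Every adipocyte sample correlated best with its own number, a hint from the data and not from the design. It was not run between lines, and the fit of groups compared alone is the same as the one reported for the difference of the responses.

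Of the further genes in adipocytes, Itgal lost its call with no filter (adjusted p = 0.0685) and without monolayer replicate 2 (0.0558). Lgals3 lost it in 10 alternatives (adjusted p = 0.0514 to 0.198) and Cd14 in 11 (adjusted p = 0.0514 to 0.170). Signal over background limits Cybb, Syk, Mrc1, Fcer1g, Cd48 and most of the genes in adipocytes, whose values lie near the noise bound.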
